A study of Rattus norvegicus with 4 samples.

Results

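The proteasome genes of rat liver were examined by every probe whose symbol in the platform annotation begins with Psma, Psmb, Psmc, Psmd, Psme, Psmf or Psmg. There were 60 such probes among 33849 gene probes. Of these, 58 named 1 gene each, 45 genes in all of 12469 named on the array, and 2 listed several genes and entered no gene count. A probe was kept where both rats of the thiamine or of the untreated group gave a spot without the scanner's flag for near background or for masking, which held for 54 of the 60 probes and 42 of the 45 genes. The genes divide into 5 of the immunoproteasome (Psmb8, Psmb9, Psmb10, Psme1 and Psme2), 27 measured subunits of the constitutive core and regulatory particles, and 10 further genes.

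RNA of the livers of 4 males of the Otsuka Long-Evans Tokushima Fatty strain, in which obesity and diabetes develop without a special diet, was measured on 1-colour CodeLink arrays. Rats of the thiamine group (n = 2) drank water with 2 g of thiamine per litre, or 0.2%, over 51 weeks, starting when they were 4 weeks old, and untreated rats (n = 2) drank water without it. All were fed standard chow, fasted for 16 h and killed when 55 weeks old. Each array carried the RNA of a single rat, unpooled, and the arrays cover 2 of the 8 rats in either group. There is no lean or non-diabetic strain among the arrays, so both groups share the strain. How far the disorder had developed in these 4 rats was not examined. Between 18176 and 20071 gene probes were above background on an array, and with 2 rats per group the number of rats sets the precision. All 12 hepatocyte markers examined, albumin among them, were measured, with a mean log2 signal between 13.26 and 13.45 in the 4 rats.

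The proteasome degrades proteins that carry chains of ubiquitin. Its barrel-shaped core is built of rings of alpha and beta subunits, of which only some beta subunits cut peptide bonds, and a regulatory particle of ATPase and non-ATPase subunits binds, unfolds and feeds in the substrate. Under interferon-gamma, and constantly in immune cells, cells make alternative catalytic subunits, Psmb8, Psmb9 and Psmb10, which take the places of Psmb5, Psmb6 and Psmb7 in newly assembled cores. Psme1 and Psme2 form a ring-shaped activator that opens the core without ubiquitin. The resulting immunoproteasome yields peptides suited to display on major histocompatibility complex (MHC) class I molecules, for which Tap1 and Tap2 carry them into the endoplasmic reticulum.

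Promoter sequence is shown for immunoproteasome genes because their induction by interferon runs through short elements near the start of transcription. Windows of 250 bases before to 50 bases after the start, from RefSeq on GRCr8, were found for 41 of the 45 genes. The letters GAAA followed after any 2 bases by GAAA, on either strand, the core of an interferon-stimulated response element, occurred in the windows of 3 of the 5 immunoproteasome genes (Psmb8, Psmb10 and Psme2) and of 4 of the 36 other proteasome genes (Psma4, Psmb3, Psmd7 and Psmg4), against 3.92% of all 33469 windows. The stretches below, each of 150 bases, are given 5′ to 3′ on the strand of the gene, with these letters or their reverse complement in capitals. That of Psmb10 is chr19:50743293-50743442 (minus strand), with matches at positions -73 to -64 and -17 to -8 from the start, that of Psme2 is chr15:33052752-33052901 (minus strand), that of Psmb8 is chr20:4657026-4657175 (minus strand), where the match lies across the annotated start, and that of Psmb9, which has no match in its window, is chr20:4668850-4668999 (plus strand).
Psmb10: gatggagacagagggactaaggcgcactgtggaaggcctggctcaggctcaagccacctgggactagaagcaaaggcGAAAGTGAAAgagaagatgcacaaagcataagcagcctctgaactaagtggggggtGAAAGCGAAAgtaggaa
Psme2: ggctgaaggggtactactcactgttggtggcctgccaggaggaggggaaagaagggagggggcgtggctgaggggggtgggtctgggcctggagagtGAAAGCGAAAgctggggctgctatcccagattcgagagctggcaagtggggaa
Psmb8: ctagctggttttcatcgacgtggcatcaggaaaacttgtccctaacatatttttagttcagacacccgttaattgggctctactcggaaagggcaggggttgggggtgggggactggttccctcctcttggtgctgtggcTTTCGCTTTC
Psmb9: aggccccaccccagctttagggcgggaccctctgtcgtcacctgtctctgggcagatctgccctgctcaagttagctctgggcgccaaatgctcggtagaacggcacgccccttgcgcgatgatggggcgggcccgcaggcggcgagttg

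A match is a string of letters and was not tested as a binding site. Psmb9 stands head to head with Tap1, and their annotated starts are 457 bases apart; Tap1 has a match, TTTCGGTTTC, at positions -121 to -112 from its own start, which lies between both genes but outside the window of Psmb9. In the RefSeq order of protein-coding genes on chromosome 20, Psmb8 and Psmb9 flank Tap1, inside the class II region of the MHC. Psme1 and Psme2 lie on chromosome 15 with the gene Emc9 between them, and Psmb10 lies apart on chromosome 19. The other motifs searched, on both strands, were TTCNNNGAA (a gamma-interferon activation site; Psmb8 of the 5, 3 of the 36 others, 8.87% of all windows), TGACNNNGC (part of an antioxidant response element; 0 of the 5, 5 of the 36, 12.1%), CCAAT (2 of the 5, 20 of the 36, 37.5%), GGG followed after any 5 bases by CC (resembling a site of NF-kappaB; 3 of the 5, 23 of the 36, 47.3%), TGANNNNGC, a looser form of the antioxidant element that covers the former (1 of the 5, 19 of the 36, 40.5%), and TGANTCA (resembling a site of AP-1; 0 of the 5, 1 of the 36, 7.33%).

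All 5 immunoproteasome genes were lower in the thiamine livers than in the untreated livers, and Psmb10 and Psmb9 stood furthest apart. The differences ran from -0.85 for Psmb10 to -0.22 for Psmb8, with a median of -0.28 on the log2 scale, against a median of 0.0035 over all 8990 named genes. The constitutive subunits lay on both sides of 0, with 11 of 27 higher, 16 lower and a median of -0.035. No proteasome probe passed the test: limma with Benjamini-Hochberg adjustment over all 18664 kept probes called 0 of 54 at an adjusted p under 0.05, as it called 0% of all kept probes. All differences here are of thiamine less untreated rats in normalised log2 signal, and each SE is limma's moderated one (n = 2 per group), drawn towards the spread over all probes.

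Psmb10, the alternative catalytic subunit that replaces Psmb7, had log2 signals of 10.64 and 10.21 in thiamine rats 1 and 2 and of 11.25 and 11.29 in untreated rats 1 and 2. Both thiamine rats were below both untreated rats, and the untreated rats were nearly equal. The difference was -0.85 ± 0.20, or 1.80-fold higher in the untreated livers (limma, unadjusted p = 0.0014, adjusted p = 0.25), and was the lowest of all 42 measured proteasome genes. Among all named genes 29 had a lower difference. Without thiamine rat 1 the difference of Psmb10 was -1.06, and without thiamine rat 2 it was -0.63.

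Psmb9, which replaces Psmb6 and shares its upstream region with Tap1, was at 10.05 and 9.69 in thiamine rats 1 and 2 and at 10.56 and 10.59 in untreated rats 1 and 2. The order of the rats was that of Psmb10, with thiamine rat 2 lowest and the untreated rats close together. The difference was -0.70 ± 0.19, or 1.63-fold higher in the untreated livers (limma, unadjusted p = 0.0040, adjusted p = 0.34). Only Psmb10 and Psmb9 among the 54 kept probes had an unadjusted p under 0.05 in limma, 3.70% of them, against 6.75% of all kept probes. Of all kept probes, 2.94% were lower and 3.81% higher at that threshold.

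Psmb8, which replaces Psmb5 and lies beside Tap1 on its other side, was at 12.50 and 12.21 in thiamine rats 1 and 2 and at 12.64 and 12.52 in untreated rats 1 and 2. Thiamine rat 1 and untreated rat 2 differed by 0.018, so that the groups were only just apart. The difference was -0.22 ± 0.19 (limma, adjusted p = 0.89) and rested on thiamine rat 2: it was -0.08 without that rat and -0.37 without thiamine rat 1. Of all named genes, 14.1% had a lower difference than Psmb8.

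The activator subunits were lower by similar amounts. Psme1 was at 13.30 and 13.32 in thiamine rats 1 and 2 and at 13.52 and 13.62 in untreated rats 1 and 2, a difference of -0.26 ± 0.18 (limma, adjusted p = 0.85). Psme2 was at 12.41 and 12.29 in thiamine rats 1 and 2 and at 12.55 and 12.71 in untreated rats 1 and 2, a difference of -0.28 ± 0.18 (limma, adjusted p = 0.85). Both genes had groups that did not overlap. RefSeq lists 3 pseudogenes each for Psme1 and Psme2, which their probes may not tell apart from the genes, and none for Psmb8, Psmb9 or Psmb10. Each of the 5 genes is represented by 1 probe, and all were free of quality flags on all 4 arrays.

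**Figure D1:**
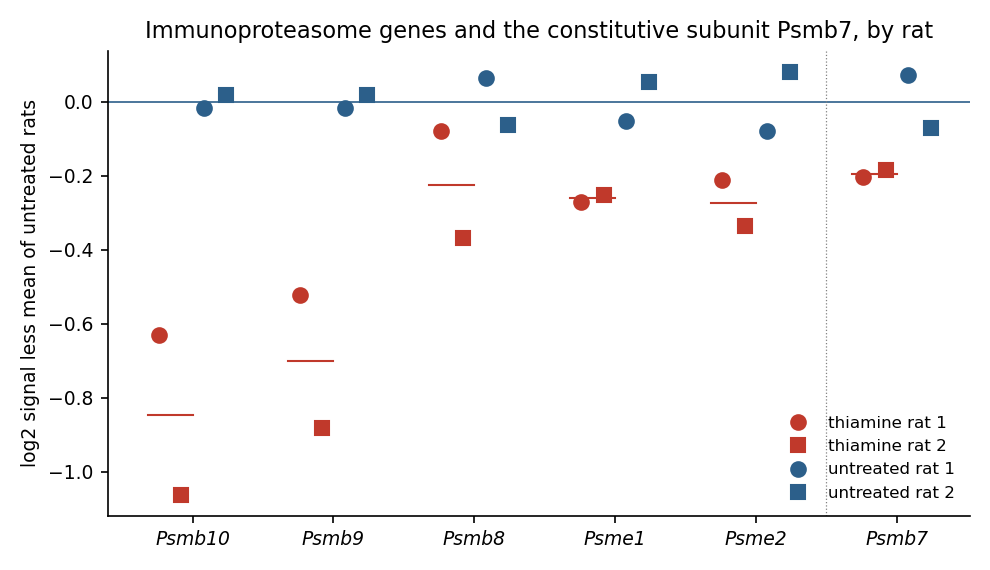
Log2 signal of each rat less the mean of the untreated rats (y axis) for the 5 immunoproteasome genes and the constitutive subunit Psmb7 (x axis). Points are single rats, red for thiamine and blue for untreated, and the short red lines are thiamine means; Psmb10 and Psmb9 lie lowest, at means of -0.85 and -0.70, and thiamine rat 2 is below thiamine rat 1 in both.

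Thiamine rat 2 was the lowest of the 4 rats for 4 of the 5 immunoproteasome genes and thiamine rat 1 for the other one, Psme1. Set against each gene's mean over the 4 rats, the median of the 5 genes was -0.14 and -0.26 in thiamine rats 1 and 2 and 0.18 and 0.22 in untreated rats 1 and 2. The constitutive subunits gave medians of -0.06 and 0.04 in thiamine rats 1 and 2 and of 0.02 and -0.0040 in untreated rats 1 and 2. The groups therefore did not overlap for the immunoproteasome median and did so for the constitutive one. For each of the 4 pairs of a thiamine with an untreated rat, the immunoproteasome median difference lay between -0.43 and -0.22, a sign that groups without overlap fix, while that of the constitutive subunits lay between -0.16 and 0.05. The median difference of the immunoproteasome genes was 0.24 below that of the constitutive subunits (a value of -0.24), and without 1 rat this value ran from -0.38 to -0.16, the latter without thiamine rat 2. With 2 rats against 2 the smallest two-sided p that an exact permutation test can give is 0.33, and none is given for this value.

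Of the constitutive catalytic subunits, Psmb7 is the 1 that the annotation names on this array; Psmb5 and Psmb6 were not analysed here. Psmb7 was at 12.05 and 12.07 in thiamine rats 1 and 2 and at 12.33 and 12.18 in untreated rats 1 and 2, a difference of -0.19 ± 0.18 (limma, adjusted p = 0.90). Its groups did not overlap either. Psmb7 and Psmb10, which exchange for each other in the core, thus had differences of the same sign, of -0.19 and -0.85. RefSeq lists 2 pseudogenes for Psmb7.

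The other beta subunits, which build the ring without cutting substrate, were on both sides of 0. Psmb3 was at 13.0 and 12.87 in thiamine rats 1 and 2 and at 13.33 and 13.12 in untreated rats 1 and 2, a difference of -0.29 ± 0.18, and its second probe was at -0.21 ± 0.18. Both of its probes had groups that did not overlap, but RefSeq lists 8 pseudogenes and 2 further coding copies of Psmb3. Psmb2 was at 0.17 ± 0.18 (0.07 without untreated rat 1), Psmb1 at -0.10 ± 0.19 (0.04 without untreated rat 1) and Psmb4 at 0.07 ± 0.22. Psmb4 was near background on the array of untreated rat 1, and its difference was 0.36 when thiamine rat 1 was left out and -0.21 when thiamine rat 2 was.

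Of the alpha subunits, which form the outer rings and the gate, 5 were measured, 1 higher and 4 lower. Psma4 was at 12.50 and 12.52 in thiamine rats 1 and 2 and at 12.82 and 12.72 in untreated rats 1 and 2. Its difference of -0.26 ± 0.18 was about as large as those of Psme1 and Psme2. Psma6 was at 0.08 ± 0.18, and its groups did not overlap. Psma1, Psma5 and Psma7 had differences of -0.06, -0.07 and -0.0084, smaller than their SE, and each took the other sign without at least 1 of the rats. The probe of Psma2 was near background on all 4 arrays, and both probes that list several genes, among them Psma3, were near background on at least 3 arrays.

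The ATPase subunits of the regulatory particle, which unfold the substrate, had a median of 0.23, with 4 of 6 higher. Leaving out thiamine rat 1 gave a median of 0.12, and leaving out untreated rat 1 gave 0.14. Psmc6 was at 9.83 and 9.98 in thiamine rats 1 and 2 and at 9.42 and 9.68 in untreated rats 1 and 2. Its difference of 0.36 ± 0.19 (limma, adjusted p = 0.80) was the highest of the measured proteasome genes. Psmc3 was at 11.49 and 11.52 in thiamine rats 1 and 2 and at 11.03 and 11.34 in untreated rats 1 and 2, a difference of 0.32 ± 0.19. Psmc4 was at 0.25 ± 0.18, and in these 3 genes both thiamine rats were above both untreated rats. The values of Psmc6 and Psmc3 were 0.23 and 0.16 without untreated rat 1. Psmc1 was at 0.21 ± 0.27 with untreated rat 1 at 10.72 and untreated rat 2 at 11.51, and it was -0.19 when untreated rat 1 was left out and 0.60 when untreated rat 2 was. Psmc2 was lower, at -0.18 ± 0.18 with groups that did not overlap, and Psmc5 was at -0.05 ± 0.19. The differences of the 6 genes spanned -0.18 to 0.36, with SE between 0.18 and 0.27, and none passed the test.

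All 11 non-ATPase subunits on the list were measured, 4 higher and 7 lower (median -0.035). Psmd11, a subunit of the lid, was lowest: it was at 11.77 and 11.14 in thiamine rats 1 and 2 and at 11.94 and 11.85 in untreated rats 1 and 2. Its difference of -0.44 ± 0.22 (limma, adjusted p = 0.79) was -0.13 without thiamine rat 2, and a second probe of Psmd11 was at 0.08 ± 0.20. The lid subunit Psmd12 was at -0.18 ± 0.18 and Psmd13 at 0.22 ± 0.18, both with groups that did not overlap. Psmd6 was at 0.23 ± 0.21, but -0.02 without untreated rat 1. The deubiquitinase Psmd14 (-0.09 ± 0.21), the ubiquitin receptor Psmd4 (-0.04 ± 0.18), the large base subunits Psmd1 (-0.18 ± 0.20) and Psmd2 (-0.03 ± 0.18), and Psmd3, Psmd7 and Psmd8, between -0.04 and 0.02, had groups that overlapped. A second probe of Psmd1 was at -0.13 ± 0.18, and its groups did not overlap.

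The remaining genes were also on both sides of 0. Psme3, a nuclear activator of the core, was at -0.02 ± 0.20 with a second probe at 0.19 ± 0.19, and the large nuclear activator Psme4 was at -0.08 ± 0.18; the groups overlapped for both of these probes. They did not for the second probes of the genes, higher for Psme3 and lower, at -0.15 ± 0.18, for Psme4. Psmf1, an inhibitor of the core, was above background on 1 array alone. Of the assembly chaperones 4 were higher and 2 lower: Psmg2 was at 0.31 ± 0.18, Psmd9 at 0.23 ± 0.18, Psmg3 at 0.22 ± 0.19 and Psmd5 at 0.20 ± 0.20, but without untreated rat 1 Psmg3 was at 0.095 and Psmd5 at -0.03. Psmd10, also known as gankyrin, was at -0.28 ± 0.18 and Psmg1 at -0.08 ± 0.19. The median of the 6 chaperones was 0.21, or 0.03 without untreated rat 1. Psmd10 had 4 kept probes, all lower, between -0.29 and -0.05. The second probes of Psmg2 and Psmd5 were lower, at -0.07 and -0.22. Psmg4 was near background on all 4 arrays. Psmc3ip, a recombination factor that bears the name of its binding partner, and Psme3ip1 are no subunits and were at -0.16 ± 0.19 and 0.19 ± 0.18.

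**Figure D2:**
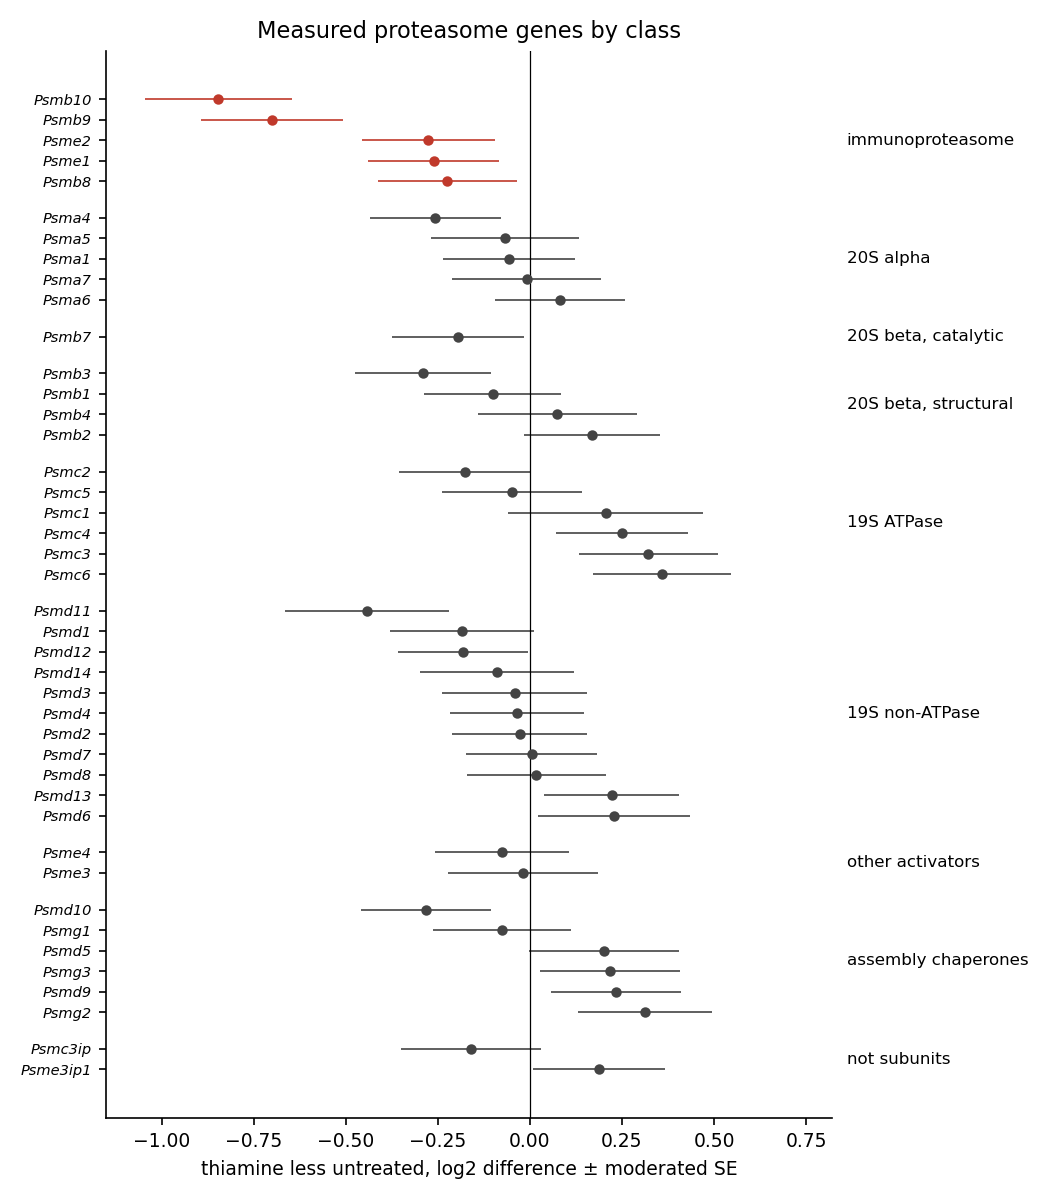
Difference of thiamine less untreated rats (x axis, log2, bars are moderated SE) for the 42 measured proteasome genes, by class, 1 brightest probe a gene. The 5 immunoproteasome genes in red are all left of 0, from -0.85 to -0.22, and the other 37 genes in grey lie between -0.44 and 0.36 on both sides.

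Among the 37 measured genes outside the immunoproteasome 16 were higher and 21 lower, all between -0.44 and 0.36, so that none reached the differences of Psmb9 and Psmb10. Of the 37, 18 took the other sign without at least 1 of the rats. Groups did not overlap for 7 genes that were lower and 8 that were higher. Over all 54 kept proteasome probes, 17 (31.5%) were lower and 9 (16.7%) higher with groups that did not overlap, against 18.3% lower and 17.8% higher of all kept probes. All 5 immunoproteasome probes are among the 17. Of the 10 genes with several kept probes, 6 had probes of 1 sign and 4 (Psmd11, Psmd5, Psme3 and Psmg2) of both signs. Of the 45 genes, 17 have pseudogenes or further copies listed under their name in RefSeq. The median difference of the immunoproteasome genes ran from -0.37 to -0.27 over the 14 alternative settings and that of the constitutive subunits from -0.11 to 0.011. Of the 14, 5 leave the immunoproteasome median as it is by their construction, since each of its genes has 1 unflagged probe, and the 4 that leave out a rat cannot turn the sign of genes whose groups do not overlap. Under the other 5, which change the background, offset, scaling or table, the median ran from -0.32 to -0.27.

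**Figure D3:**
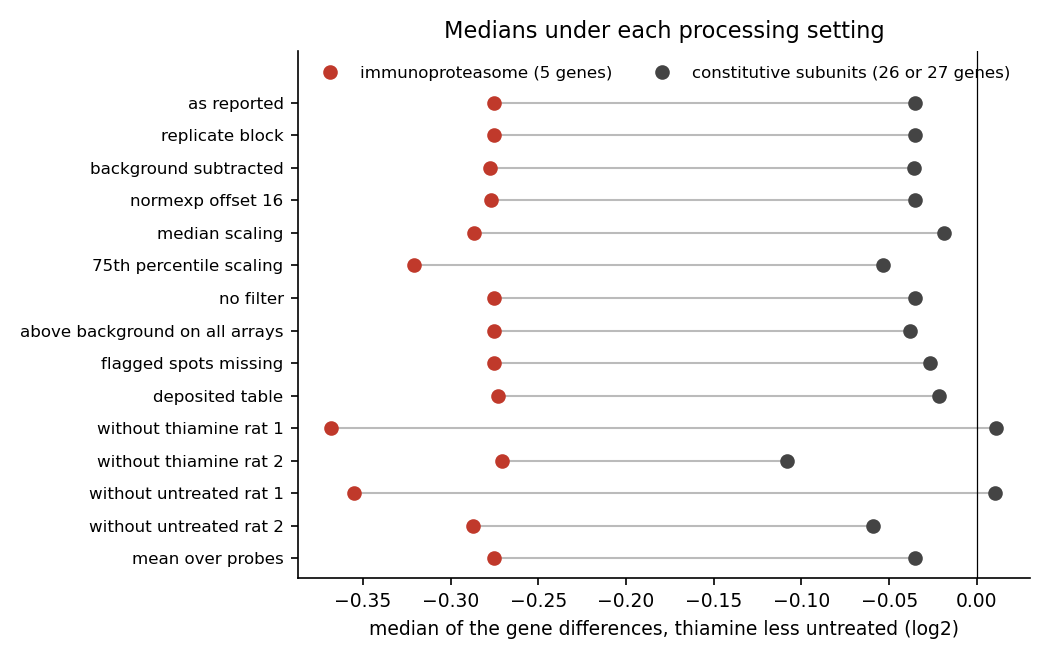
Median difference of thiamine less untreated rats (x axis, log2) for the immunoproteasome genes in red and the constitutive subunits in grey, under the reported processing and each of the 14 alternatives (y axis). The red points lie between -0.37 and -0.27 and the grey points between -0.11 and 0.011.

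The genes that work beside the immunoproteasome in class I presentation were lower in part. Of 8 measured genes of this list, 3 were higher and 5 lower (median -0.22). At an unadjusted p under 0.05 in limma there were 3 genes, all lower, or 37.5% of the list. Of all kept probes, 6.75% had such a p in either direction and 2.94% were lower with it. None of the list passed over all probes. Tap1, which forms the peptide transporter with Tap2, was at 8.29 and 8.22 in thiamine rats 1 and 2 and at 8.96 and 8.46 in untreated rats 1 and 2, a difference of -0.46 ± 0.21. Without untreated rat 1 it was -0.21, and without untreated rat 2 it was -0.70. Tapasin (Tapbp), which holds class I molecules at the transporter, was at 10.19 and 10.16 in thiamine rats 1 and 2 and at 10.54 and 10.92 in untreated rats 1 and 2, a difference of -0.55 ± 0.19, or -0.36 without untreated rat 2. Over the settings with all 4 arrays the difference of Tapbp ran from -0.58 to -0.36. Calreticulin (Calr), a chaperone of class I folding and of the endoplasmic reticulum at large, was at -0.47 ± 0.20, or -0.24 without untreated rat 2, and both thiamine rats were below both untreated rats in all 3 genes. The chaperone Pdia3 was at -0.24 ± 0.18 (-0.15 without thiamine rat 1) and the trimming peptidase Erap1 at -0.21 ± 0.19 (-0.08 without thiamine rat 2). The class I light chain B2m was at 0.15 ± 0.19 with groups that overlapped, and the class I gene RT1-CE10 at 0.28 ± 0.20 with groups that did not; without untreated rat 2 they were at 0.04 and 0.08. The chaperone calnexin (Canx) was at 0.08 ± 0.24, and at -0.27 without untreated rat 1. The probe of Tap2 was near background.

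Irf1, the transcription factor through which interferon-gamma induces Psmb8, Psmb9, Psmb10 and Tap1, was at 9.37 and 9.06 in thiamine rats 1 and 2 and at 9.68 and 9.84 in untreated rats 1 and 2. Both thiamine rats were below both untreated rats, with thiamine rat 2 lowest, as for Psmb10 and Psmb9. Groups did not overlap, with thiamine lower, for 18.3% of all kept probes. The part of Irf1 in the immunoproteasome difference was not tested. The difference of Irf1 was -0.54 ± 0.19 (limma, unadjusted p = 0.016, adjusted p = 0.57), and it was -0.70 when thiamine rat 1 was left out and -0.39 when thiamine rat 2 was. Over the settings with all 4 arrays the difference of Irf1 ran from -0.60 to -0.35. Of the 26 measured interferon regulators and induced genes, 1, Irf1, had an unadjusted p under 0.05 in limma, 3.85% of them against 6.75% of all kept probes. Of this list 14 were higher and 12 lower (median 0.014), which became 0.10 on leaving out untreated rat 1 and -0.14 on leaving out untreated rat 2. Isg15, a ubiquitin-like modifier, was at -0.35 ± 0.18, Irf2 at 0.23 ± 0.19 (0.09 without untreated rat 1) and Ifit3 at 0.31 ± 0.21 (0.04 without untreated rat 2). The probe of Ifng itself was near background. Of 9 measured regulators of the constitutive genes 4 were higher and 5 lower. Those with the smallest p were Maff, a small partner protein of the factors that bind antioxidant elements (0.70 ± 0.19, limma, unadjusted p = 0.0034, adjusted p = 0.33), and Stat3 (-0.50 ± 0.20, or -0.31 without untreated rat 1). Ddi2, a protease that activates Nfe2l1, was at 0.28 ± 0.19, or 0.13 without thiamine rat 2, and Foxo4 at 0.30 ± 0.23, or 0.04 without that rat and 0.07 without untreated rat 1.

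The rest of the ubiquitin pathway lay on both sides of 0. Of 7 measured proteasome factors whose symbols fall outside the rule, 6 were higher and 1 lower (median 0.20, or 0.0071 without untreated rat 1). The median of 0.20 is the value of Pomp, 1 of the 6. Pomp was kept through the thiamine rats (7.46 and 7.60). Its signal in untreated rat 1 (7.01) was below the lowest above background on that array (7.25). The adaptor Ecpas was at 0.28 ± 0.18 and Zfand2a at 0.28 ± 0.18. Ecpas was kept through the thiamine rats (7.36 and 7.34). Its untreated signals (7.06 and 7.08) were below the lowest above background on those arrays (7.25 and 7.24). The deubiquitinase Usp14 was at 0.22 ± 0.20 (0.0071 without untreated rat 1) and the small lid subunit Sem1 at 0.17 ± 0.18 (0.07 without thiamine rat 1). Of 6 ubiquitin genes and activating enzymes 2 were higher and 4 lower, with Uba7, which activates Isg15, at -0.35 ± 0.22 (-0.04 without untreated rat 2). Of 24 conjugating enzymes 10 were higher and 14 lower (median -0.035). Ube2d2 was at -0.42 ± 0.18, but at -0.05 as the mean over all its kept probes, and Ube2l6, the conjugating enzyme of Isg15, was at -0.38 ± 0.18. Of 14 shuttle factors and partners of the segregase Vcp 3 were higher and 11 lower (median -0.08, or 0.011 without untreated rat 1); Syvn1, a ligase of the endoplasmic reticulum, was at -0.38 ± 0.22 (-0.16 without thiamine rat 2), Ubxn4 at -0.33 ± 0.19 (-0.20 without untreated rat 1) and Vcp at -0.26 ± 0.19 (-0.14 without untreated rat 1). At an unadjusted p under 0.05 in limma there was 1 gene among the 51 of these 4 lists, Ube2d2, or 1.96%. The share of all kept probes was 6.75%. A further list, of ubiquitin ligases, had 19 measured genes, 10 higher and 9 lower (median 0.03, or -0.07 without untreated rat 1). In that list 2 genes had such a p, Cul4a at -0.50 ± 0.18 and Mylip at 0.53 ± 0.20. Mylip was kept through the thiamine rats (7.31 and 7.66), with the untreated rats near background (7.05 and 6.85). Fbxo32, also counted as higher, was kept through the thiamine rats too, with untreated rat 2 near background (6.85). No gene of these lists passed over all probes.

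**Figure D4:**
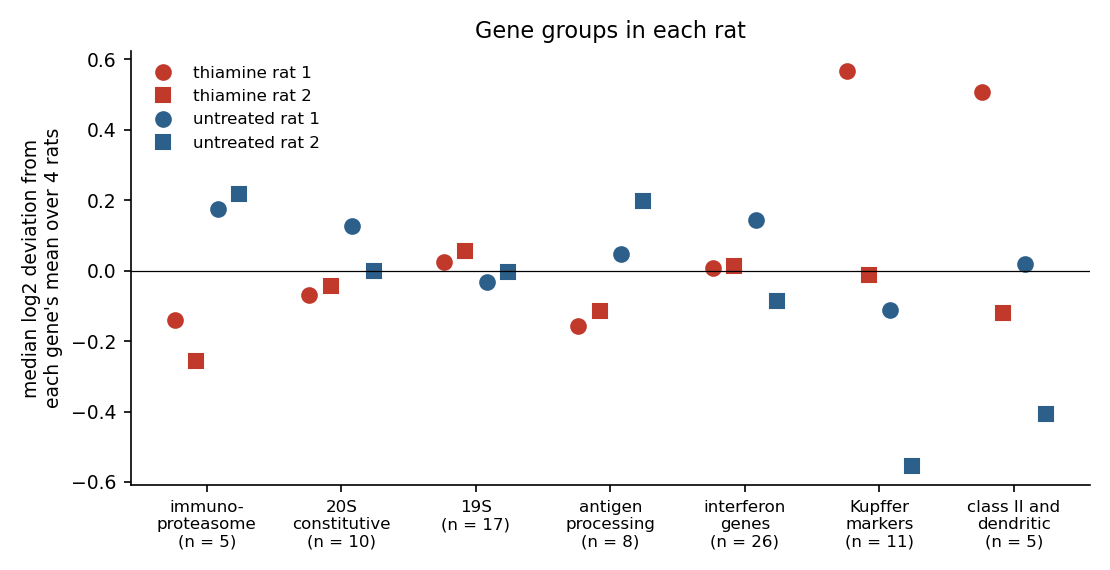
Median log2 deviation from each gene's mean over the 4 rats (y axis) for 7 gene groups (x axis, n is the number of measured genes), with 1 point a rat. The immunoproteasome points of both thiamine rats (-0.14 and -0.26) lie below both untreated rats (0.18 and 0.22), while Kupffer markers are highest in thiamine rat 1 (0.57) and lowest in untreated rat 2 (-0.55).

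Immune cells carry much immunoproteasome, so their markers are given beside these values. Of 16 markers of Kupffer cells, the macrophages of the liver, 11 were measured, 10 higher and 1 lower in the thiamine livers (median 0.61, or 0.32 without thiamine rat 1). At an unadjusted p under 0.05 in limma there were 7 of them, all higher, beside 6.75% of all kept probes in either direction. None passed over all probes in the main fit. Ctss was at 0.92 ± 0.25 and C1qa at 0.81 ± 0.24, or 0.57 and 0.52 without thiamine rat 1. The mean log2 signal of the 11 was 11.13 and 10.58 in thiamine rats 1 and 2 and 10.51 and 10.11 in untreated rats 1 and 2. Of 10 markers of dendritic cells and class II 5 were measured, all higher, with a median of 0.42 and a mean log2 signal of 10.55 and 9.86 in thiamine rats 1 and 2 and of 10.03 and 9.56 in untreated rats 1 and 2. That median was 0.07 without thiamine rat 1, with 4 of 5 higher, and 0.17 without untreated rat 2, with 3 of 5 higher. Ciita, 1 of the 5, ran from -0.14 to 0.53 over the settings with all 4 arrays. Of 16 markers of T and natural killer cells 8 were measured, 5 higher and 3 lower (median 0.15, or 0.018 without thiamine rat 1 and 0.03 without untreated rat 2). Their mean log2 signal was 8.15 and 8.07 in thiamine rats 1 and 2 and 8.12 and 7.89 in untreated rats 1 and 2. Klrd1 and Cd3d, both counted as higher, were kept through the thiamine rats. Klrd1 was at 7.08 and 6.57 in untreated rats 1 and 2, and Cd3d was at 6.87 in untreated rat 2. These 3 signals were below the lowest above background on those arrays (7.25 and 7.24 for untreated rats 1 and 2). Cd2, Cd4, Cd8a, Zap70, Cd247 and Gzmb were near background. Of 9 markers of B and plasma cells 3 were measured, all higher, between 0.04 and 0.35, and of 10 of neutrophils 2 were measured, S100a9 at -0.38 ± 0.22 (-0.08 without thiamine rat 2) and Itgam at 0.02 ± 0.20. Of 12 endothelial markers 8 were measured, 6 higher and 2 lower (median 0.27, or 0.06 without thiamine rat 1), with Lyve1 at 0.77 ± 0.20 and Pecam1 at 0.55 ± 0.18, and the hepatocyte gene Cps1 was at 0.53 ± 0.18 among hepatocyte markers with a median of -0.04. The Kupffer median was thus above 0 in the thiamine livers without any single rat, while those of class II, T cell and endothelial markers came near 0 without thiamine rat 1. The part of these cells in the immunoproteasome difference was not tested. In whole liver, fewer cells of a type and less RNA per cell cannot be told apart.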

How the data were processed

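Per the file headers, the authors' 4 array reports, 1 slide a rat, come from the software CodeLink Expression Analysis, version 5.0.0.31312, and hold intensity values on a linear scale: the spot mean, the median of the local background and a quality flag. The deposited value table holds intensity values with medians between 141.67 and 142.10 over gene probes; its scaling is not stated. From the spot means and backgrounds, normexp with an offset of 50, log2 and quantile normalisation over 33849 gene probes were computed; 1280 control features were left out and masked spots were missing. The group difference was fitted with limma 3.58.1 (R 4.3.3) (two-sided, Benjamini-Hochberg over 18664 kept probes, threshold 0.05). The fit was checked on simulated data. The simulation was revised, to draw variances from limma's prior, after its first form recovered too few changed probes. The revised data thus follow the model that the fit assumes, and the check holds under that model alone. A gene is its brightest kept probe. Pathway symbols were updated through GRCr8 RefSeq; 16753 probes have 1 symbol, 165 several and 367 a name from their accession. Labels name separate rats; cage mates are not given.

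The members, gene lists and motifs were chosen with earlier results of these data known, so no p is adjusted over a list and lists have counts and medians only. Every proteasome gene may be named; of other lists, up to 4 genes by the smallest unadjusted p and every measured antigen processing gene. Alternatives covered background, offset, scaling, filter, flagged spots, the deposited table, the probe of a gene, a replicate block and leaving out each rat.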

Additional observations from a re-analysis of the deposited data

How the results depend on the processing

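The number of probes called by limma over the whole array was 0 with all 4 arrays and moved to 126 with the replicate block, 35 with flagged spots missing, 1 with background-subtracted intensities and 1 with the deposited table; it ran from 1 to 65 without 1 rat. No proteasome probe was called under any alternative with a test. The labels give both groups the numbers 1 and 2 without saying that they pair rats, and the rat-to-rat differences of both groups correlated at -0.074 over kept probes, so the replicate block is no main result; with it Psmb10 and Psmb9 had adjusted p of 0.064 and 0.19. Without 1 rat the immunoproteasome median ran from -0.37 to -0.27, the constitutive median from -0.11 to 0.011 (above 0 without thiamine rat 1 or untreated rat 1), and the difference between both from -0.38 to -0.16. Each slide held 1 array, so the batch alternative was not run. Over all kept probes the median SE was 0.19, little below the sizes of the differences of Psmb8, Psme1 and Psme2 (-0.22, -0.26 and -0.28).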
